A study of Homo sapiens with 12 samples.

Results

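Chromatin carries, beside the bulk histones made in S phase, histone variants that come from single genes with introns or polyadenylated messages and are made throughout the cell cycle. The 8 genes described here are H1-10, H2AZ1, H2AZ2, H2AX, H2AJ, H3-3A, H3-3B and MACROH2A1. They were taken by name, through their Ensembl identifiers, from the 63677 genes of the count table. The naming rule uses no measured value, although earlier results of these data were known when it was set, and all 8 were among the 17730 genes with enough reads to be tested. The label of genes outside the histone clusters held by position for 7 of them: no other protein-coding histone gene lay within 10000 bases. H2AJ was the exception, with H4C16, a replication-dependent H4 gene, 3252 bases away in GENCODE 29.

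The RNA came from HCT116 cells, an established colon carcinoma line, in 6 groups of 2 libraries from biological duplicates. The groups siTotal1 and siTotal2 each received 1 of a pair of custom siRNAs against every transcript of NFYA. The groups siLong1 and siLong2 each received 1 of a pair of siRNAs against the NFYA messages that end in the longest 3′ UTR. The mock group went through transfection with no siRNA, and the siControl group received a non-targeting siRNA. The dose of each siRNA was 62.5 nM, and the harvest was at 72 h. The stranded library kit selects polyadenylated RNA. The groups therefore speak for 1 cell line at 1 dose and 1 time, and siTotal and siLong below mean the average of their 2 siRNA groups. In RNA of a whole culture, fewer cells that express a gene and less of its RNA per cell cannot be told apart.

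NFYA encodes the DNA-binding subunit of NF-Y, a trimeric transcription factor that recognises CCAAT boxes, short promoter elements common in cell cycle genes and in histone genes. Histone variants replace the bulk histones at chosen places: H3.3 and H2A.Z mark promoters and enhancers, H2AX is phosphorylated beside DNA breaks, macroH2A is enriched in repressed chromatin, and linker histones such as H1.10 bind the DNA that enters and leaves the nucleosome. Their messages differ from those of the bulk histones, which end in a stem-loop and are for the most part lost in poly(A) selection. The H2AX gene gives both kinds of message, so only its polyadenylated form was measured here.

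The 4 siRNAs are shown first because they define the tested groups. They are printed as sense strands, as the labels give them, and the labels do not say which of a pair is numbered 1. None of the 57 GENCODE 29 transcripts of the 8 genes held a full match to any of them.
siTotal, first sequence: acuagaggcagaagggaaa
siTotal, second sequence: uggugaagguggacgauuu
siLong, first sequence: agugaucauuguaggguaa
siLong, second sequence: ggucauuccuuuagcauca

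The promoters were searched for CCAAT on either strand, so also for its reverse complement ATTGG, in the 300-base RefSeq windows that run from 250 bases before to 50 bases after the transcription start (GRCh38.p14). All 8 genes had a window. H3-3B, H2AZ2 and H2AX held 4 boxes each, H2AZ1 and H2AJ held 3, H3-3A held 1, and H1-10 and MACROH2A1 held none. Of all 35116 promoters of this length, 34.6% held at least 1 box, 10.8% at least 2 and 3.26% at least 3. The box nearest to the start is shown for each of the 6 genes that have one, with 8 bases on either side and the box in capitals. Each is read 5′ to 3′ along the strand of its gene.
H3-3A, chr1:226061611-226061631, plus strand: tactgagaATTGGaaaacagg
H3-3B, chr17:75779866-75779886, minus strand: agcgcccaCCAATagaaaaag
H2AZ1, chr4:99950343-99950363, minus strand: tggcagccATTGGtgggatga
H2AZ2, chr7:44848101-44848121, minus strand: aagcgggcATTGGccacagca
H2AX, chr11:119095520-119095540, minus strand: gaaaagagCCAATcaggaggg
H2AJ, chr12:14774332-14774352, plus strand: caccagagCCAATggaaaggg

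In H3-3B all 4 boxes were read on the strand of the gene, 216, 192, 169 and 99 bases before its RefSeq start. The nearest boxes of H2AX and H2AJ lay 67 and 65 bases before the start, and that of H2AZ1 lay 80 bases before it. The single box of H3-3A was 212 bases before the start. These are matches of letters in a fixed window, and no binding was measured.

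**Figure D1:**
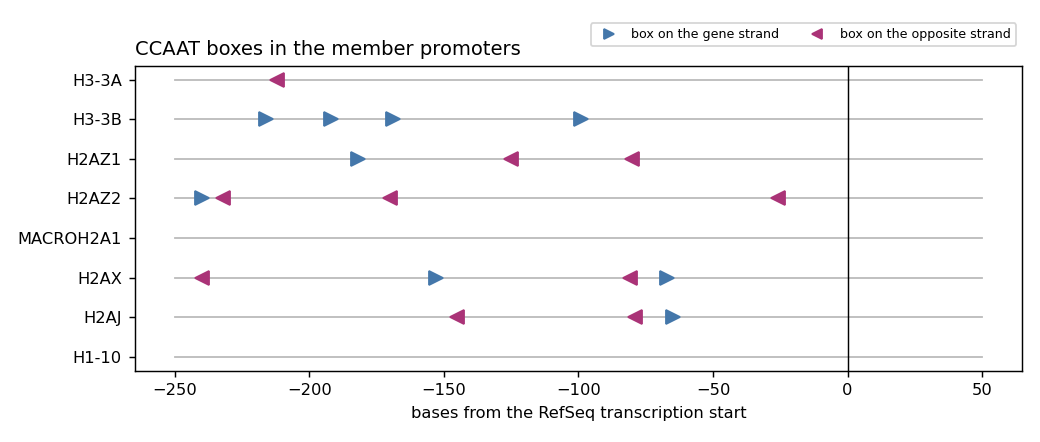
Position of each CCAAT match in the RefSeq promoter windows of the 8 genes, in bases from the transcription start, with the arrow giving the strand relative to the gene. H3-3B, H2AZ2 and H2AX hold 4 matches each, and the lines of MACROH2A1 and H1-10 are empty.

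Libraries held 35604197 to 49746637 counted reads. NFYA itself, the targeted gene, had 47.9 and 46.8 CPM (counts scaled to library size) in siTotal1, 46.0 and 46.2 in siTotal2, 47.7 and 46.5 in siLong1, 69.7 and 70.1 in both libraries labelled siLong2, 55.2 and 59.1 in mock and 57.4 and 57.5 in siControl. NFYA was thus lower than siControl in the first 3 groups, with log2 fold changes of -0.28, -0.32 and -0.29, and higher by 0.28 in both libraries labelled siLong2 (edgeR, adjusted p = 5.9e-06). Gene counts do not separate the NFYA messages by their 3′ ends. The total was raised in the libraries labelled siLong2, and it cannot show whether their messages with the longest 3′ UTR fell. Every direction drawn from that group carries this limit. All 8 epithelial markers were present, with summed levels of 3476 to 5787 CPM, the 5 blood markers stayed under 1 CPM, and 2 of 3 endothelial markers did too, PECAM1 being at 0. The 6 fibroblast markers summed to 26.3 to 45.1 CPM, most of it COL1A1. The fibroblast gene DCN passed 1 CPM in 4 libraries only, mock 1 (2.10 CPM), siTotal2 1 and 2 (2.55 and 1.30 CPM) and siLong2 2 (1.10 CPM), and was at most 0.0565 CPM in the other libraries. Those 4 libraries are left out in a repeat, whose values are given beside the calls it ends. In that repeat siTotal is siTotal1 alone, and mock and siLong2 keep 1 library each.

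Per length of message, H2AZ1 stood highest in every library, at 161 to 277 RPKM (CPM per kilobase of merged exons). H3-3B followed with 105 to 147 RPKM, and H2AX with 65.5 to 128 RPKM. H1-10 ranged from 17.1 to 68.7 RPKM: it came next outside siLong, but was below H2AZ2 in siLong1 and below H2AZ2, H3-3A and MACROH2A1 in both libraries labelled siLong2. The ranges of H2AZ2 (20.6 to 31.7 RPKM), H3-3A (20.3 to 29.5 RPKM) and MACROH2A1 (16.2 to 21.2 RPKM) overlapped one another, and H2AJ was lowest at 1.52 to 2.95 RPKM. Lengths are those of all annotated exons merged, so a gene that uses only part of them is placed too low. All further levels are in CPM, which compare 1 gene between libraries.

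**Figure D2:**
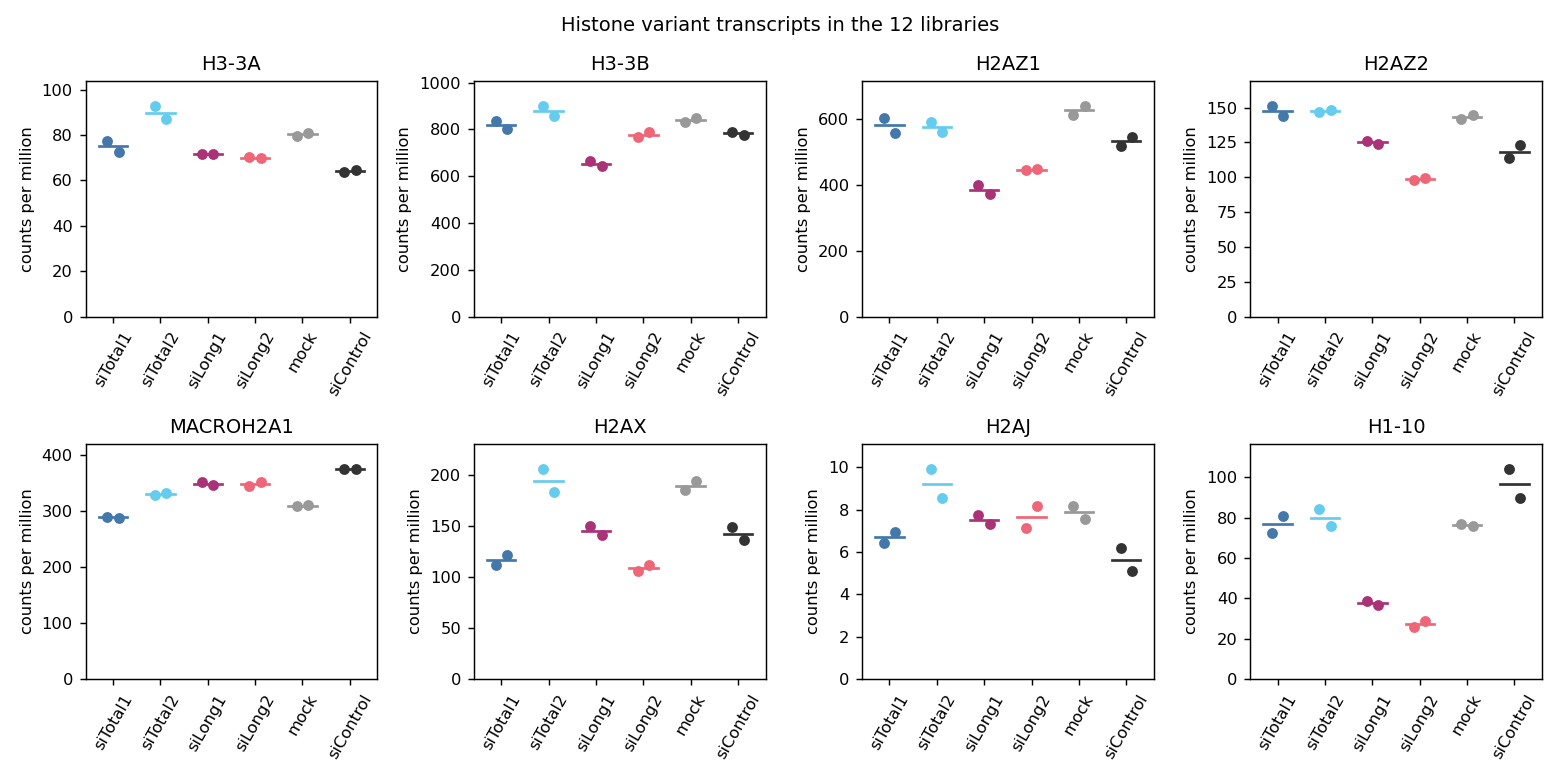
Level of each histone variant gene in the 12 libraries, in CPM scaled for library composition, 1 point per library and a bar at the mean of each group of 2. H1-10 lies at 25.8 to 38.6 CPM in the 4 siLong libraries and at 72.5 to 104 CPM in the other 8, while H2AX splits the siTotal groups into 112 to 122 and 183 to 206 CPM.

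The linker histone gene H1-10 moved most. It encodes H1.10, also called H1X, a replication-independent linker histone (ENSG00000184897, chromosome 3, 129314771 to 129316277, minus strand, GRCh38). H1-10 had 72.5 and 80.7 CPM in siTotal1, 84.1 and 75.8 in siTotal2, 38.6 and 36.8 in siLong1, 25.8 and 29.0 in both libraries labelled siLong2, 76.7 and 75.9 in mock and 104 and 89.6 in siControl. The 4 siLong libraries lay below all 8 others, and siLong1 and siLong2 did not overlap each other. The siTotal1, siTotal2 and mock ranges overlapped, and siControl lay above them. Behind these levels were 1367 and 1390 reads in siLong1, 925 and 1024 reads in both libraries labelled siLong2, and 3941 and 3324 reads in siControl.

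Against siControl, H1-10 fell by 1.59 on the log2 scale in siLong (SE 0.07, edgeR, adjusted p = 6.9e-11), and against mock it fell by 1.25 (SE 0.07, adjusted p = 1.5e-09). The siLong1 value was -1.36 against siControl and -1.02 against mock. In the libraries labelled siLong2 it was -1.82 against siControl and -1.48 against mock, and siLong1 was higher than siLong2 by 0.46 (SE 0.09, adjusted p = 5.6e-04). In siTotal the gene differed from siControl by -0.30 (SE 0.06, adjusted p = 0.0015) and from mock by 0.04 (adjusted p = 0.72), while mock itself differed from siControl by -0.34 (adjusted p = 0.0022). With mock and siControl averaged as 1 control the siTotal value was -0.13 and its call was lost (adjusted p = 0.064), and without siControl 1 the siTotal2 value of -0.27 against siControl became -0.17.

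When each siRNA sequence counted as 1 replicate, against mock and siControl as the controls, the siLong value of H1-10 was -1.41. It was then called by DESeq2 (adjusted p = 3.6e-06) and not by edgeR (adjusted p = 0.27, unadjusted p = 1.0e-04). The antisense gene H1-10-AS1 overlaps H1-10 and held 677 reads over all libraries, 2.22% of the reads on H1-10. It lay between 0.613 and 2.39 CPM and differed by -0.87 between siLong and siControl, short of the threshold (adjusted p = 0.12). Whether the counting used strand is unknown, so reads of the pair may be mixed at that scale.

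The H2A.Z genes H2AZ1 and H2AZ2 encode nearly identical variants that the SRCAP and EP400 complexes place at promoters. H2AZ1 (ENSG00000164032, chromosome 4, 99948086 to 99950388, minus strand) had 604 and 558 CPM in siTotal1, 592 and 560 in siTotal2, 399 and 371 in siLong1, 444 and 449 in both libraries labelled siLong2, 614 and 639 in mock and 519 and 545 in siControl. The 4 siLong libraries were again below all others. The siTotal1 and siTotal2 ranges overlapped, siControl lay just below them and mock just above.

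H2AZ1 fell in siLong by 0.36 on the log2 scale against siControl (SE 0.04, edgeR, adjusted p = 3.9e-10) and by 0.60 against mock (SE 0.04, adjusted p = 1.2e-15). By siRNA, the value against siControl was -0.47 for siLong1 and -0.25 for the libraries labelled siLong2, which differed from each other (siLong1 minus siLong2 -0.21, adjusted p = 1.1e-04). In siTotal it was 0.12 against siControl (adjusted p = 0.0099) and -0.12 against mock (adjusted p = 0.018), so its sign turned with the control. The first of these calls was lost without siControl 1 (0.07, adjusted p = 0.3), without siTotal1 1 (0.08, adjusted p = 0.076), without siTotal2 1 (0.09, adjusted p = 0.089), with only the compared groups fitted (0.11, adjusted p = 0.05) and with the controls averaged (0.00). The call against mock was lost without mock 2 (-0.09, adjusted p = 0.21) and without the 4 libraries that held DCN (-0.14, adjusted p = 0.064). With each siRNA sequence as 1 replicate the siLong value of H2AZ1 was -0.48 (edgeR, adjusted p = 0.32, unadjusted p = 0.0073).

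H2AZ2 (ENSG00000105968, chromosome 7, 44826791 to 44848083, minus strand) followed another order. It had 151 and 144 CPM in siTotal1, 147 and 148 in siTotal2, 126 and 124 in siLong1, 97.9 and 99.5 in both libraries labelled siLong2, 142 and 145 in mock and 114 and 123 in siControl. The libraries labelled siLong2 were the lowest, siLong1 lay just above siControl, and siTotal1, siTotal2 and mock stood together at the top. Against siControl H2AZ2 was higher in siTotal by 0.32 (SE 0.04, edgeR, adjusted p = 6.2e-09), close to the difference of 0.28 between mock and siControl (adjusted p = 1.1e-06), and siTotal differed from mock by 0.04. With the controls averaged the siTotal value was 0.18.

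In siLong, H2AZ2 differed by -0.37 from mock (SE 0.04, edgeR, adjusted p = 5.2e-11). Against siControl the siLong average was -0.09 (adjusted p = 0.037), made of 0.08 in siLong1 (adjusted p = 0.13) and -0.26 in both libraries labelled siLong2 (adjusted p = 3.5e-06). This averaged call was lost without siControl 2 (-0.04, adjusted p = 0.54), siLong1 2 (-0.09, adjusted p = 0.07), siLong2 1 (-0.09, adjusted p = 0.075) or the 4 libraries that held DCN (-0.10, adjusted p = 0.057). It was lost as well, at -0.08, with DESeq2 (adjusted p = 0.11), with its size factors in edgeR (adjusted p = 0.079) and with a minimum count of 50 (adjusted p = 0.051). Without siControl 1 it was -0.15, and with the controls averaged it was -0.23. The siRNAs differed directly, siLong1 minus siLong2 being 0.34 (SE 0.04, adjusted p = 2.5e-08), opposite in sign to the -0.21 of H2AZ1.

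The makeup of the H2A.Z pair therefore shifted in siLong1. H2AZ1 supplied 80.0% and 79.4% of the reads of the pair in siTotal1, 80.1% and 79.1% in siTotal2, 76.0% and 74.9% in siLong1, 81.9% and 81.9% in both libraries labelled siLong2, 81.2% and 81.5% in mock and 82.0% and 81.6% in siControl. The siLong1 share lay below every other library, the siTotal shares lay below both controls, and the siLong2 share fell within the range of siControl. The sum of both genes was 702 to 755 CPM in the siTotal libraries, 495 to 548 CPM in the siLong libraries, 757 and 784 CPM in mock and 633 and 668 CPM in siControl.

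**Figure D3:**
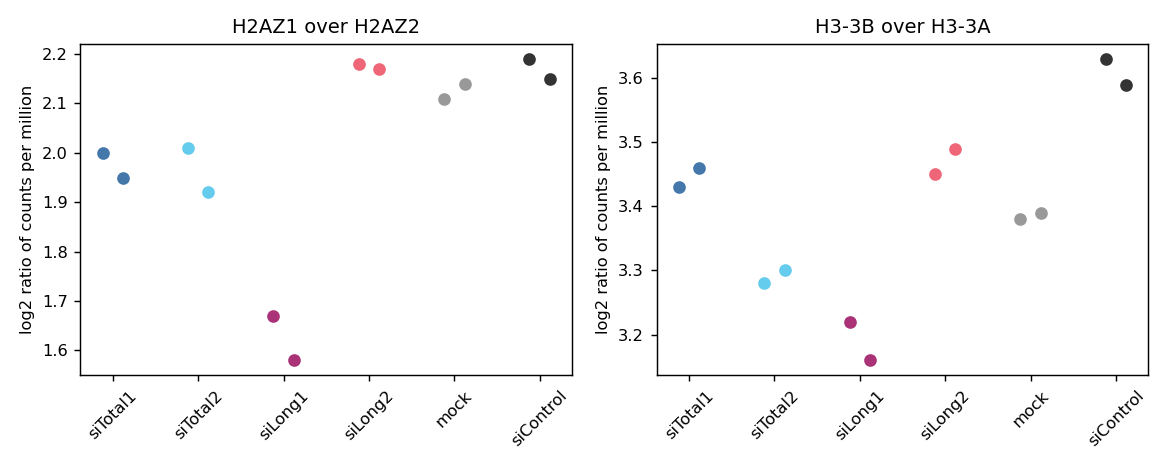
Log2 ratio of the CPM of H2AZ1 over H2AZ2 (left) and of H3-3B over H3-3A (right), 1 point per library, on axes that do not start at 0. The siLong1 libraries are lowest in both panels, at 1.67 and 1.58 on the left and 3.22 and 3.16 on the right. The siControl libraries are highest on the right, and on the left they share the top with siLong2.

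H2AX separated the siRNAs of each pair. It encodes H2A.X, which ATM, ATR and DNA-PK phosphorylate around double-strand breaks (ENSG00000188486, chromosome 11, 119093854 to 119095467, minus strand). H2AX had 112 and 122 CPM in siTotal1, 206 and 183 in siTotal2, 150 and 141 in siLong1, 106 and 112 in both libraries labelled siLong2, 185 and 194 in mock and 149 and 136 in siControl. The siTotal2 and mock libraries overlapped at the top, siLong1 and siControl overlapped in the middle, and siTotal1 and then siLong2 lay at the bottom without overlap.

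The siTotal average of H2AX, 0.08 above siControl (SE 0.05, edgeR, adjusted p = 0.23), hid -0.28 in siTotal1 (adjusted p = 0.0017) and 0.45 in siTotal2 (adjusted p = 1.5e-05). The difference of siTotal1 minus siTotal2 was -0.73 (SE 0.06, adjusted p = 7.5e-08). Likewise, siLong1 differed from siControl by 0.03 (adjusted p = 0.7, interval -0.10 to 0.16) and the libraries labelled siLong2 by -0.39 (adjusted p = 6.6e-05), siLong1 minus siLong2 being 0.42 (adjusted p = 3.0e-05). Against mock, 3 of the 4 siRNA groups were lower, by -0.69 in siTotal1, -0.38 in siLong1 and -0.80 in both libraries labelled siLong2, and siTotal2 differed by 0.04 (adjusted p = 0.71). Mock itself was 0.41 above siControl (adjusted p = 4.7e-05).

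Averages of H2AX over a pair changed with the setting. The siLong value of -0.18 against siControl (adjusted p = 0.01) was lost without siControl 1 (-0.12, adjusted p = 0.09) and was -0.38 with the controls averaged. The siTotal value against siControl was -0.12 with the controls averaged (adjusted p = 0.038), 0.11 without siTotal2 2 (adjusted p = 0.04) and -0.28 without the 4 libraries that held DCN (adjusted p = 6.3e-05), a repeat that leaves siTotal1 alone. Which messages of the replication-dependent histone genes gave their reads here was not tested. These genes, whose bulk messages end in a stem-loop, moved with 1 of the siRNA pairs. Of the 15 tested, 13 were lower in siTotal1 than in siTotal2 and none was higher, with a median of -1.45. Of all tested genes, 20.6% were lower and 23.3% higher. In siLong1 against siLong2, 6 were lower and 1 higher, beside 27.0% and 26.7% of all tested genes. The median there was -0.41, opposite in sign to the H2AX difference. Their part in the H2AX values was not tested.

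H2AJ, an H2A variant known to accumulate in senescent human fibroblasts with lasting DNA damage, was the least abundant (ENSG00000246705, chromosome 12, 14774383 to 14778002, plus strand). It had 6.44 and 6.95 CPM in siTotal1, 9.92 and 8.53 in siTotal2, 7.76 and 7.31 in siLong1, 7.13 and 8.18 in both libraries labelled siLong2, 8.17 and 7.58 in mock and 6.18 and 5.09 in siControl. The siControl libraries were below all others, siTotal2 was above all others, and siLong1, siLong2 and mock overlapped.

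Every called difference of H2AJ from a control was one from siControl. It was higher than siControl by 0.48 in siTotal (SE 0.10, edgeR, adjusted p = 2.0e-04), by 0.43 in siLong (adjusted p = 5.5e-04) and by 0.48 in mock (adjusted p = 6.7e-04). The siTotal average was made of 0.25 in siTotal1, which was not called (adjusted p = 0.095), and 0.71 in siTotal2 (adjusted p = 2.8e-06). Without siControl 1 the siTotal1 value was 0.38 (adjusted p = 0.039). Against mock the values were -0.01 in siTotal and -0.06 in siLong (adjusted p = 0.65). The siTotal value against mock averaged -0.24 in siTotal1 (adjusted p = 0.088) and 0.22 in siTotal2 (adjusted p = 0.12), neither of them called. The siLong call was lost without siControl 2 (0.29, adjusted p = 0.058), and the siTotal call was lost without the 4 libraries that held DCN (0.25, adjusted p = 0.1). With the controls averaged the values were 0.24 in siTotal and 0.19 in siLong. The siTotal pair differed directly, siTotal1 minus siTotal2 being -0.46 (SE 0.11, adjusted p = 9.2e-04).

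MACROH2A1, like H1-10, was highest in siControl. It encodes macroH2A1, a large H2A variant with a macro domain (ENSG00000113648, chromosome 5, 135333900 to 135399914, minus strand). MACROH2A1 had 289 and 288 CPM in siTotal1, 329 and 333 in siTotal2, 351 and 346 in siLong1, 345 and 352 in both libraries labelled siLong2, 309 and 310 in mock and 375 and 375 in siControl. The siControl libraries stood above all others, siLong1 and siLong2 overlapped below them, siTotal2 and then mock followed, and siTotal1 was lowest.

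Against siControl MACROH2A1 fell by 0.28 in siTotal (SE 0.03, edgeR, adjusted p = 4.8e-09), by 0.11 in siLong (adjusted p = 0.0062) and by 0.28 in mock (adjusted p = 1.9e-07). Against mock it was 0.17 higher in siLong (adjusted p = 4.0e-05), and the siTotal average of 0.00 was made of -0.10 in siTotal1 and 0.09 in siTotal2. The direction in siLong thus turned with the control. With the controls averaged the siTotal value was -0.14 (adjusted p = 4.7e-05) and the siLong value was 0.03 (adjusted p = 0.31). The -0.10 of siTotal1 against mock (adjusted p = 0.029) was lost without either mock library (-0.11 without mock 1 and -0.10 without mock 2), and siTotal1 minus siTotal2 was -0.20 (adjusted p = 5.2e-05). PITX1-AS1, which overlaps this gene over 4968 exon bases, held 277 reads over all libraries, 0.181% of those on MACROH2A1.

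H3-3A and H3-3B encode the same protein, histone H3.3, which HIRA places in active chromatin and DAXX with ATRX at telomeres and repeats. H3-3A (ENSG00000163041, chromosome 1, 226061851 to 226072001, plus strand) had 77.4 and 72.6 CPM in siTotal1, 92.7 and 87.0 in siTotal2, 71.5 and 71.8 in siLong1, 70.3 and 69.9 in both libraries labelled siLong2, 79.8 and 81.0 in mock and 63.8 and 64.6 in siControl. The siControl libraries were lowest and those of siTotal2 highest, and the 4 siLong libraries lay below mock and every siTotal library. H3-3A was higher than siControl by 0.35 in siTotal (SE 0.04, edgeR, adjusted p = 5.0e-09) and by 0.32 in mock (adjusted p = 4.7e-07). The average difference of siTotal from mock, 0.03, was made of -0.10 in siTotal1 (adjusted p = 0.081) and 0.16 in siTotal2 (adjusted p = 0.0075). That siTotal2 call was lost without mock 1 (0.15) and without siTotal2 1 (0.10).

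In siLong, H3-3A was 0.14 above siControl (edgeR, adjusted p = 0.0037) and 0.18 below mock (log2 fold change -0.18, adjusted p = 2.0e-04). The first of these was lost without siControl 1 (0.12, adjusted p = 0.067), and with the controls averaged it was -0.02. In siTotal the averaged controls gave 0.19. The siTotal pair differed by -0.26 (siTotal1 minus siTotal2, adjusted p = 1.6e-05). The siTotal value over siLong was 0.21 (adjusted p = 1.1e-06). That call was lost without the 4 libraries that held DCN (0.08), where siTotal is siTotal1 alone.

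H3-3A has processed copies that share its sequence. Of 53 listed copies of the variant genes, 20 had any read and 2 had at least 1000 reads, H3P6 (8635 reads) and H3P16 (5856 reads), both copies of H3-3A. The copies held 27.6% to 31.0% of the sum of H3-3A and its copies in the 12 libraries, and that range overlapped between siTotal, siLong and the controls. H3P6 and H3P16 differed from siControl by 0.33 and 0.34 in siTotal (edgeR, adjusted p = 8.1e-05 and 3.3e-04). How reads were split between the gene and its copies is unknown, so the level of H3-3A is uncertain. The share covers only reads counted on the gene or on these copies, so it sets no upper limit to that uncertainty.

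H3-3B (ENSG00000132475, chromosome 17, 75776434 to 75785893, minus strand) had 834 and 801 CPM in siTotal1, 899 and 858 in siTotal2, 665 and 643 in siLong1, 769 and 787 in both libraries labelled siLong2, 830 and 848 in mock and 789 and 777 in siControl. The siLong1 libraries were lowest and those of siTotal2 highest. The libraries labelled siLong2 overlapped siControl, and siTotal1 overlapped mock. H3-3B fell in siLong1 by 0.26 against siControl (edgeR, adjusted p = 1.2e-06), while the siLong2 value was -0.01 (adjusted p = 0.88, interval -0.09 to 0.07). The siLong1 minus siLong2 difference was -0.25 (SE 0.04, adjusted p = 2.3e-06).

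The siLong averages of H3-3B were -0.13 against siControl (edgeR, adjusted p = 0.0014) and -0.23 against mock (adjusted p = 5.3e-07). In siTotal, H3-3B was 0.11 above siControl (adjusted p = 0.0077), and this call was lost without siControl 1 (0.11, adjusted p = 0.082), siControl 2 (0.09, adjusted p = 0.17), siTotal2 1 (0.09, adjusted p = 0.076) or the 4 libraries that held DCN (0.06, adjusted p = 0.27). It was also lost with only the compared groups fitted (0.11, adjusted p = 0.069) and with the controls averaged (0.06, adjusted p = 0.075). H3-3B supplied 91.5% and 91.7% of the reads of the H3.3 pair in siTotal1, 90.7% and 90.8% in siTotal2, 90.3% and 90.0% in siLong1, 91.6% and 91.8% in both libraries labelled siLong2, 91.2% and 91.3% in mock and 92.5% and 92.3% in siControl. UNK, which overlaps H3-3B, had 5.60% as many reads and differed by -0.52 between siLong and siControl (adjusted p = 1.8e-10), and its part in the H3-3B value was not tested.

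Counted over the 8 genes, siTotal against siControl called 5 higher and 2 lower, where 44.2% of all tested genes were called, 22.0% higher and 22.2% lower. H2AX was the one not called. In siLong against siControl 2 were higher and 6 lower, where 53.5% of all tested genes were called, 25.1% higher and 28.4% lower. Mock against siControl called all 8, 6 higher and 2 lower, where 39.8% of all tested genes were called, 19.5% higher and 20.3% lower, with a median log2 fold change of 0.26 for the variants and 0.01 for all tested genes. The 2 control groups thus differed in each of these genes, although the H3-3B call of that comparison (0.10, edgeR, adjusted p = 0.047) was lost without any 1 of the 4 libraries (0.08 to 0.11, adjusted p = 0.11 to 0.22) and without the libraries that held DCN (0.12, adjusted p = 0.097). It was also lost with the DESeq2 size factors (adjusted p = 0.078) and with no filter on low counts (adjusted p = 0.1). The siTotal and siLong comparisons with siControl share those control libraries, as does mock against siControl.

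Against mock, fewer genes were called in siTotal than against siControl, among the 8 and among all tested genes alike. Here 2 of the 8 genes were lower, H2AZ1 (-0.12) and H2AX (-0.33, SE 0.05, edgeR, adjusted p = 1.6e-04), and none was higher, where 30.8% of all tested genes were called, 16.6% higher and 14.2% lower. The H2AZ1 call was the one lost without mock 2 (-0.09). By siRNA, H2AX differed from mock by -0.69 in siTotal1 and 0.04 in siTotal2, and H3-3A was called higher in siTotal2 (0.16). Without the 4 libraries that held DCN, which sets siTotal1 alone against mock 2, the H2AX value was -0.73. In siLong against mock 6 were lower and 1, MACROH2A1, was higher, where 50.8% of all tested genes were called, 24.4% higher and 26.4% lower. The median over the 8 genes was 0.01 in siTotal and -0.30 in siLong, beside 0.00 and -0.01 over all tested genes.

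Set directly against each other, siTotal was higher than siLong in 6 of the 8 genes and lower in 1, MACROH2A1 (-0.17). Of all tested genes, 53.4% were called, 28.1% higher and 25.3% lower. Without the 4 libraries that held DCN, where siTotal is siTotal1 alone, the MACROH2A1 value was -0.26. The median was 0.26 over the 8 genes and 0.01 over all tested genes. The largest of these differences were 1.28 for H1-10 (SE 0.06, edgeR, adjusted p = 1.7e-10), 0.48 for H2AZ1 (adjusted p = 2.3e-15) and 0.41 for H2AZ2 (adjusted p = 4.2e-14). H2AJ differed by 0.05 (adjusted p = 0.64). The calls of H2AX (0.26) and H3-3A (0.21) ended without the 4 libraries that held DCN, at -0.08 and 0.08. Within pairs, siTotal1 was lower than siTotal2 in 5 of the 8 genes and higher in none, where 43.9% of all tested genes were called, 23.3% higher and 20.6% lower. The siLong1 group was higher than siLong2 in 3 and lower in 2, where 53.7% were called, 26.7% higher and 27.0% lower.

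Taken by single siRNA, the counts of called genes stood close together against siControl and apart against mock. The shares of all tested genes, given beside them, differed in the same way. Against siControl, 6 of the 8 were called in siTotal1 (43.4% of all tested genes), 8 in siTotal2 (45.1%), 6 in siLong1 (54.5%) and 7 in both libraries labelled siLong2 (52.7%). Against mock, 3 were called in siTotal1 (40.9% of all tested genes), 2 in siTotal2 (26.7%), 7 in siLong1 (52.0%) and 7 in both libraries labelled siLong2 (50.3%). The siLong2 count against siControl was 5 without siControl 1 or siLong2 1 and 4 without siControl 2 or siLong2 2, and the siLong1 count was 4 to 6 with single libraries left out. The siTotal1 count against mock was 1 without mock 2, the siTotal2 count was 0 without mock 1 and 1 without mock 2 or either siTotal2 library, and several of these calls were small, at log2 differences near 0.1.

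**Figure D4:**
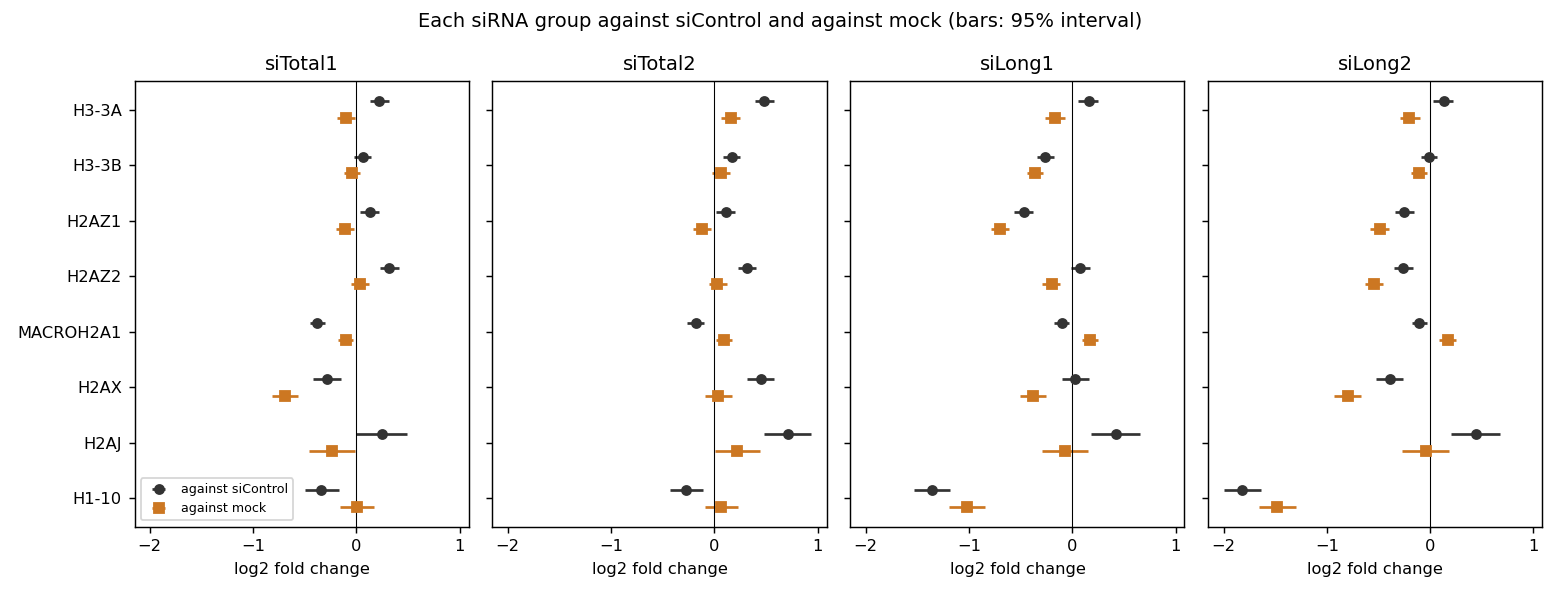
Log2 fold change of each histone variant gene in each siRNA group against siControl (black circles) and against mock (orange squares), with 95% intervals from the edgeR fit over all 12 libraries. The H1-10 points lie at -1.02 or below in both siLong panels and between -0.34 and 0.07 in both siTotal panels. For every gene the black and orange points differ by the gap between the controls, which follows from the shared fit.

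The factors that place or read these variants were counted from lists. For comparison with all list counts, siTotal against siControl called 22.0% of all tested genes higher and 22.2% lower, and siLong 25.1% and 28.4%. Against mock these shares were 16.6% and 14.2% in siTotal and 24.4% and 26.4% in siLong. Of 8 H3.3 deposition genes, 4 were higher and 2 lower in siTotal against siControl, and 2 were higher and 3 lower in siLong. ASF1A, the chaperone that hands H3 and H4 to HIRA, was higher by 0.74 in siTotal (SE 0.06, edgeR, adjusted p = 3.9e-13) and by 0.59 in siLong (adjusted p = 6.6e-11), and against mock by 0.20 in siTotal (adjusted p = 0.0032) and 0.05 in siLong (adjusted p = 0.42). HIRA differed from siControl by -0.38 in siTotal and -0.16 in siLong, and from mock by 0.04 and 0.27. DEK, an H3.3 chaperone, fell in siLong against both siControl (-0.30) and mock (-0.39). The list's median was 0.04 in siTotal and 0.03 in siLong, beside 0.00 and -0.01 over all tested genes.

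Of 13 H2A.Z exchange genes, 2 were higher and 7 lower in siTotal against siControl, and 2 were higher and 8 lower in siLong. Against mock 1 was higher and 2 lower in siTotal, and 2 were higher and 9 lower in siLong. YEATS4, a subunit shared by the SRCAP and TIP60 complexes, fell in siLong by 0.76 against siControl (SE 0.06, edgeR, adjusted p = 5.9e-13) and by 0.89 against mock (adjusted p = 4.7e-15), and its siTotal values were 0.04 and -0.09. ANP32E, which removes H2A.Z from nucleosomes, fell in siLong by 0.43 against siControl and by 0.41 against mock. INO80, a remodelling ATPase, differed from siControl by -0.44 in siTotal and -0.51 in siLong, and from mock by -0.05 and -0.12. DMAP1, a subunit of the same exchange complexes as YEATS4, was higher by 0.48 in siTotal and 0.44 in siLong against siControl. The list's median was -0.11 in siTotal and -0.13 in siLong against siControl.

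Of 8 genes for kinases of H2AX, for a phosphatase that reverses their mark (EYA3) or for factors that read it, 2 were higher and 1 lower in siTotal against siControl, while in siLong none was higher and 5 were lower. The 1 lower in siTotal was EYA3 (-0.12, adjusted p = 0.028), which was also among the 5 in siLong (-0.16, adjusted p = 0.0018), and it is named here after its values were seen. MDC1, which binds phosphorylated H2AX, fell in siLong by 0.40 against siControl (SE 0.04, edgeR, adjusted p = 4.7e-12) and by 0.54 against mock (adjusted p = 1.7e-15). RNF168, a ubiquitin ligase of the same response, fell by 0.46 against siControl and by 0.35 against mock. PRKDC, the catalytic subunit of DNA-PK, was at 0.00 against siControl and -0.33 against mock in siLong. The median of this list was 0.07 in siTotal and -0.15 in siLong against siControl.

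Chaperones and replication genes gave the wider setting. Of 9 general histone chaperones, 3 were higher and 2 lower in siTotal against siControl, and 1 was higher and 6 lower in siLong. Against mock no chaperone of this list was higher, 5 were lower in siTotal and 7 in siLong. NASP differed from siControl by -0.22 in siTotal and -0.31 in siLong, and from mock by -0.36 and -0.45. CHAF1B and CHAF1A, subunits of the assembly factor CAF-1, fell in siLong by 0.54 and 0.41 against siControl, and ASF1B by 0.35. Of 15 DNA replication genes, which are known to be high in dividing cells, 12 were higher and 2 lower in siTotal against siControl, and 2 were higher and 10 lower in siLong. Against mock none was higher in either group, 9 were lower in siTotal and all 15 were lower in siLong, with medians of -0.11 and -0.47. RRM2, a subunit of ribonucleotide reductase, fell in siLong by 0.96 against siControl (SE 0.04, edgeR, adjusted p = 1.3e-22). The 2 higher in siLong against siControl were PCNA (0.31) and MCM3 (0.10), named here after their values were seen. Against mock the replication genes were lower together with H2AZ1 and H1-10 in siLong, and their part in those values was not tested.

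**Figure D5:**
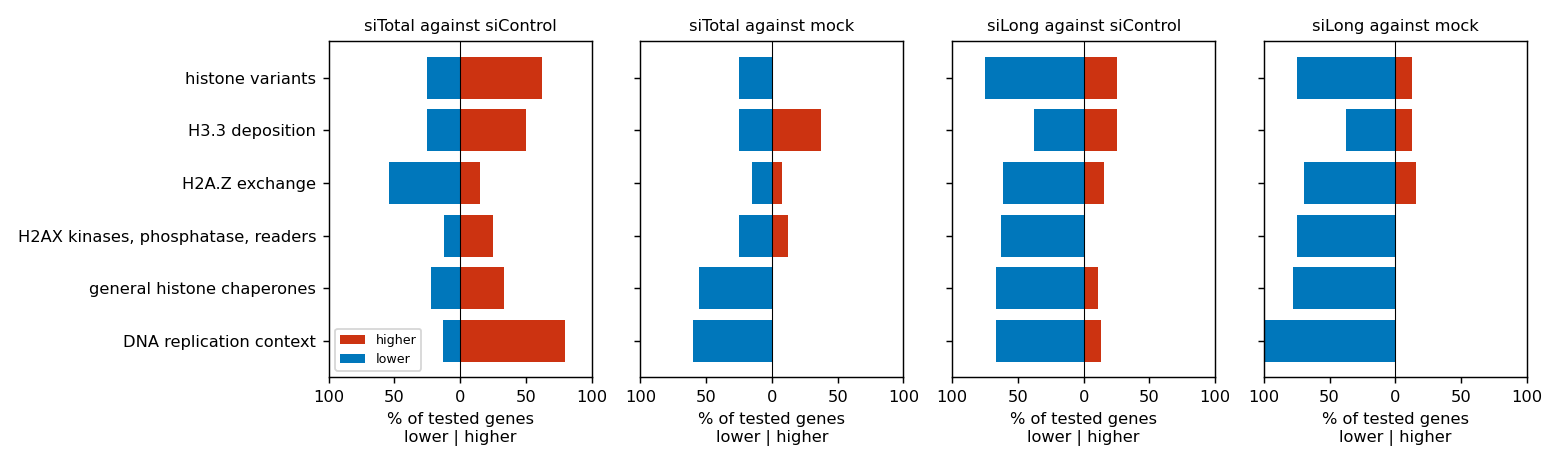
Share of tested genes called higher (right, red) and lower (left, blue) in siTotal and siLong against siControl and against mock, for the 8 histone variants and 5 lists of related genes. In siLong against mock all 15 replication genes and 6 of the 8 variants are lower, beside 26.4% of all tested genes. In siTotal against mock no variant is higher, beside 16.6% of all tested genes.

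Across the 6 group means, the gene most like each variant was sought among 6288 genes with a mean log2 CPM of at least 5, by Pearson's r as a description over 6 points from the same 12 libraries. H1-10 was followed most closely by YY1 (r = 0.997) and KNL1 (r = 0.994), H2AZ1 by SHMT2 (r = 0.992) and CBX2 (r = 0.991), and H2AZ2 by TMEM94 (r = 0.991) and RPS28 (r = 0.987). H2AX was closest to PTMS (r = 0.985), H2AJ to TNRC6B (r = 0.979), MACROH2A1 to SEC24D (r = 0.992), H3-3B to SERPINB6 (r = 0.992) and H3-3A to YIF1B (r = 0.963). Among the variants themselves, H3-3B and H2AZ1 were the closest pair (r = 0.90), followed by H3-3A with H2AJ (r = 0.86) and H2AZ1 with H1-10 (r = 0.80). The pairs that share a protein family were less alike, at 0.66 for H2AZ1 with H2AZ2 and 0.58 for H3-3A with H3-3B. MACROH2A1 had a negative r with each of the other 7 genes, -0.69 with H2AZ2 at the lowest and -0.05 with H2AX at the highest.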

How the data were processed

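The authors deposited whole read counts for 63677 Ensembl genes in a table of 12 library columns. The submitters' processing notes name STAR 2.4.0f1, featureCounts and hg19. Not given in the sources used here were the annotation release, strand setting and handling of reads shared between genes. Current symbols were found for 52181 genes. Positions and exon lengths were looked up by identifier in GENCODE 29 (GRCh38) for 52526 genes, and promoter sequences from RefSeq GRCh38.p14.

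Counts were scaled by TMM, genes were kept by filterByExpr (minimum count 10, minimum total 15), and the 6 groups were fitted together with edgeR 4.0.16 (robust quasi-likelihood F-test, R 4.3.3). Benjamini-Hochberg adjustment ran over 17730 genes, with calls at adjusted p under 0.05. Each SE is the absolute log2 fold change divided by the square root of F, and intervals are 95%. CPM are TMM-scaled, and RPKM divide them by merged exon length. With 6 residual degrees of freedom and a common biological coefficient of variation of 3.57%, p-values measure the spread between duplicates in 1 cell line. The fitting code was tested on simulated data.

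The 8 genes and all lists were chosen with earlier results of these data known. Within each list, the 4 genes at most with the largest called change against siControl were eligible to be named. Alternatives were DESeq2 1.42.0, its size factors, other filters, only the compared groups, a replicate block, averaged controls, siRNA sequences as replicates, and leaving out each library. A repeat without the 4 libraries that held over 1 CPM of DCN was chosen after seeing the data.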

Additional observations from a re-analysis of the deposited data

Results flagged for a closer look

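Both siRNAs of a pair were aimed at the same NFYA messages, and 10 values differed between them when siRNA 1 was tested directly against siRNA 2 (edgeR, adjusted over all tested genes). In siTotal1 minus siTotal2 the log2 difference was -0.73 for H2AX, -0.46 for H2AJ, -0.26 for H3-3A, -0.20 for MACROH2A1 and -0.10 for H3-3B. The siTotal2 libraries are 2 of the 4 that held DCN, whose part in these differences was not tested. In siLong1 minus siLong2 it was 0.46 for H1-10, 0.42 for H2AX, 0.34 for H2AZ2, -0.25 for H3-3B and -0.21 for H2AZ1. NFYA itself was lower in siLong1 than in the libraries labelled siLong2 by a log2 difference of -0.57 (adjusted p = 3.3e-12). The H3-3B difference of the siTotal pair was lost without siTotal1 2 (-0.07, adjusted p = 0.14) and without siTotal2 1 (-0.08, adjusted p = 0.25).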

How the results depend on the processing

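Of 128 gene values, the replicate block left all 128 on their side of the threshold. Correlations of same-numbered deviations ran between -0.29 and 0.34 over 15 pairs of groups. They do not decide whether the shared replicate numbers pair the samples. DESeq2 moved 5 of the 128 values, its size factors in place of TMM 7, the missing filter 5, and the fit of only the compared groups 6. Counting each siRNA sequence as 1 replicate left 0 of the 8 genes called in siTotal and 0 in siLong by edgeR, which then called 0 of all genes in siTotal (423 at an unadjusted p under 0.05) and 1 in siLong (2009 at that level), where DESeq2 called 7 and 291. H1-10 and H2AZ1 were called lower in siLong against mock and siControl under each other setting run, at -1.70 to -1.41 and -0.48 to -0.33 against siControl and -1.30 to -1.22 and -0.63 to -0.57 against mock, the sequence setting included for siControl. The count called in siTotal against mock was 1 without the 4 libraries that held DCN and 1 to 2 with single libraries left out. It was 1 for siTotal1 against mock with only the compared groups (1 to 4 with single libraries left out) and 1 for siTotal2 against mock with the DESeq2 size factors (0 to 1), and siLong2 against siControl gave 4 to 5.

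Signs turned in these values. H2AX in siTotal against siControl became -0.09 with sequences as replicates, -0.12 with averaged controls and -0.28 without the DCN libraries. H3-3A in siLong against siControl became -0.03 and -0.02 under the first 2 of these, and MACROH2A1 became 0.03 under both. Without the DCN libraries, siTotal is siTotal1 alone, so these values also reflect a change of group. There siTotal against mock was -0.11 for H3-3A and -0.06 for H3-3B, and siTotal against siLong was -0.13 for H2AJ and -0.08 for H2AX. With a minimum count of 50, H1-10 in siTotal1 against mock was -0.02 and H2AZ1 in siTotal1 against siTotal2 was -0.01. With single libraries left out, these uncalled values ran through 0: in siTotal against mock H1-10 -0.02 to 0.06, H2AJ -0.08 to 0.04, H3-3A -0.01 to 0.04 and H3-3B -0.02 to 0.03, in siTotal1 against mock H1-10 -0.09 to 0.05 and H2AZ2 -0.02 to 0.06, and in siTotal2 against mock H1-10 -0.02 to 0.13 and H2AX -0.06 to 0.11. The same held for H2AJ in siLong2 against mock (-0.15 to 0.05), siLong1 against siLong2 (-0.13 to 0.07) and siTotal against siLong (-0.01 to 0.10), for H2AX in siLong1 against siControl (-0.04 to 0.09), and in siTotal1 against siTotal2 for H1-10 (-0.14 to 0.01) and H2AZ1 (-0.06 to 0.07). Why these signs turned was not tested. For genes with an SE near 0.04, a log2 difference near 0.1 was at the edge of what was called with 2 libraries a group. That edge was higher for H2AJ, whose 0.25 in siTotal1 against siControl (SE 0.12) was not called.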

Other observations

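In these poly(A) libraries 15 of 34 replication-dependent histone genes, listed by symbol, passed the filter on low counts. Some of them rose and some fell. H2BC5 was higher by 0.62 in siTotal (SE 0.13, edgeR, adjusted p = 1.1e-04) and by 1.57 in siLong (SE 0.12, adjusted p = 4.9e-14) against siControl, and by 0.76 and 1.71 against mock. H2BC12 was higher by 1.11 in siTotal (SE 0.07, adjusted p = 3.0e-16) and 0.83 in siLong (SE 0.07, adjusted p = 5.4e-13) against siControl. H1-4 differed from siControl by -1.06 in siLong (SE 0.37, adjusted p = 0.015) and by -0.55 in siTotal (adjusted p = 0.21). Its siLong value against mock was -0.84 (adjusted p = 0.055). Over the list, 4 were higher and none lower in siTotal against siControl, beside 22.0% and 22.2% of all tested genes. In siLong 4 were higher and 2 lower, beside 25.1% and 28.4%. By siRNA the list split: against siControl its median was -0.44 in siTotal1 and 1.07 in siTotal2.

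CENPA, the centromeric H3 variant, is another histone gene made outside S phase. It fell by 0.33 in siTotal (SE 0.06, edgeR, adjusted p = 4.3e-05) and by 0.84 in siLong (SE 0.07, adjusted p = 2.0e-13) against siControl, and against mock by 0.44 and 0.94.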
